A study of Mus musculus with 14 samples.

Results

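Nuclear genes that set how many mitochondria a cell makes and how they fuse and divide, 10 in all, were followed in hippocampal parvalbumin (PV) neurons after chronic social defeat stress (CSDS). They are Ppargc1a, Ppargc1b, Esrra, Nrf1 and Tfam for mitochondrial biogenesis, Mfn1, Mfn2 and Opa1 for fusion, and Dnm1l and Fis1 for fission. The rule lists them by name and applies no threshold to a measured value. They are 10 of the 39017 genes in the count table, and all 10 were among the 21298 genes that passed the filter on low counts. All mice were males of C57BL/6 background, aged 8 to 12 weeks when behavioral experiments began, and carried PV-Cre together with a Cre-dependent EGFP-L10a allele, also those of the control groups. This combination puts a fluorescent tag on ribosomes of any cell in which the PV promoter has driven Cre. Translating ribosome affinity purification (TRAP) then recovered the RNA on tagged ribosomes from both hippocampi of 1 mouse per library. There were 4 TRAP libraries of non-defeated mice, 4 of resilient mice and 3 of susceptible mice, and 3 input libraries of total RNA from non-defeated mice taken before TRAP. Resilient and susceptible mice had all been attacked by CD1 aggressors on 10 days and differed in their social interaction ratio, which was above 1 in resilient and under 1 in susceptible mice. Non-defeated mice were housed in pairs across a divider and never met an aggressor. A library is therefore 1 mouse, and the spread between libraries of a group is that between mice and preparations.

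PGC-1alpha, encoded by Ppargc1a, and PGC-1beta, encoded by Ppargc1b, are coactivators that bind transcription factors and raise the output of genes for respiration. Their partners include the estrogen-related receptor ERRalpha (Esrra) and nuclear respiratory factor 1 (Nrf1), which act on nuclear genes, among them Tfam. The product of Tfam packages mitochondrial DNA and takes part in its transcription. The mitofusins Mfn1 and Mfn2 join outer membranes, and Opa1 joins inner membranes and shapes the cristae. The dynamin-related GTPase encoded by Dnm1l is recruited to the outer membrane and constricts it, and Fis1 is an outer membrane protein linked to division. PV neurons fire fast and have a high demand for ATP, and PGC-1alpha is known to be high in them and to be needed for normal levels of parvalbumin.

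Libraries held 64110214 to 94726962 reads assigned to genes. The lowest count of any of the 10 genes in any library was 836, for which counting error alone is 3.46%, and the highest was 34400. Values are given as CPM, counts scaled to a common library size after TMM normalization, and tests are those of the edgeR quasi-likelihood fit of all 14 libraries, adjusted over all genes tested. Of 10 PV interneuron markers, 10 were higher in non-defeated TRAP libraries than in input, with Pvalb at 1464 ± 134 CPM (SD, n = 4) against 25.4 ± 6.03 (SD, n = 3). Lower in TRAP were 7 of 8 markers of excitatory hippocampal neurons, 6 of 6 of oligodendrocytes, 6 of 6 of microglia and 4 of 6 of astrocytes, but no marker list was absent from TRAP. Higher in TRAP were 2 of 8 markers of other interneurons (log2 fold change 2.79 for Npy and 1.61 for Sst), 2 of 7 of endothelium and blood (1.22 for Cldn5 and 1.16 for Ly6c1) and 1 of 7 of thalamic neurons (0.99 for Rora). But 5 of the 8 other interneuron markers, 3 of the 7 endothelial and blood markers and 3 of 5 choroid plexus markers were lower in TRAP. In libraries of whole dissected tissue or of tagged ribosomes, fewer cells of a type and less RNA per cell cannot be told apart.

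**Figure D1:**
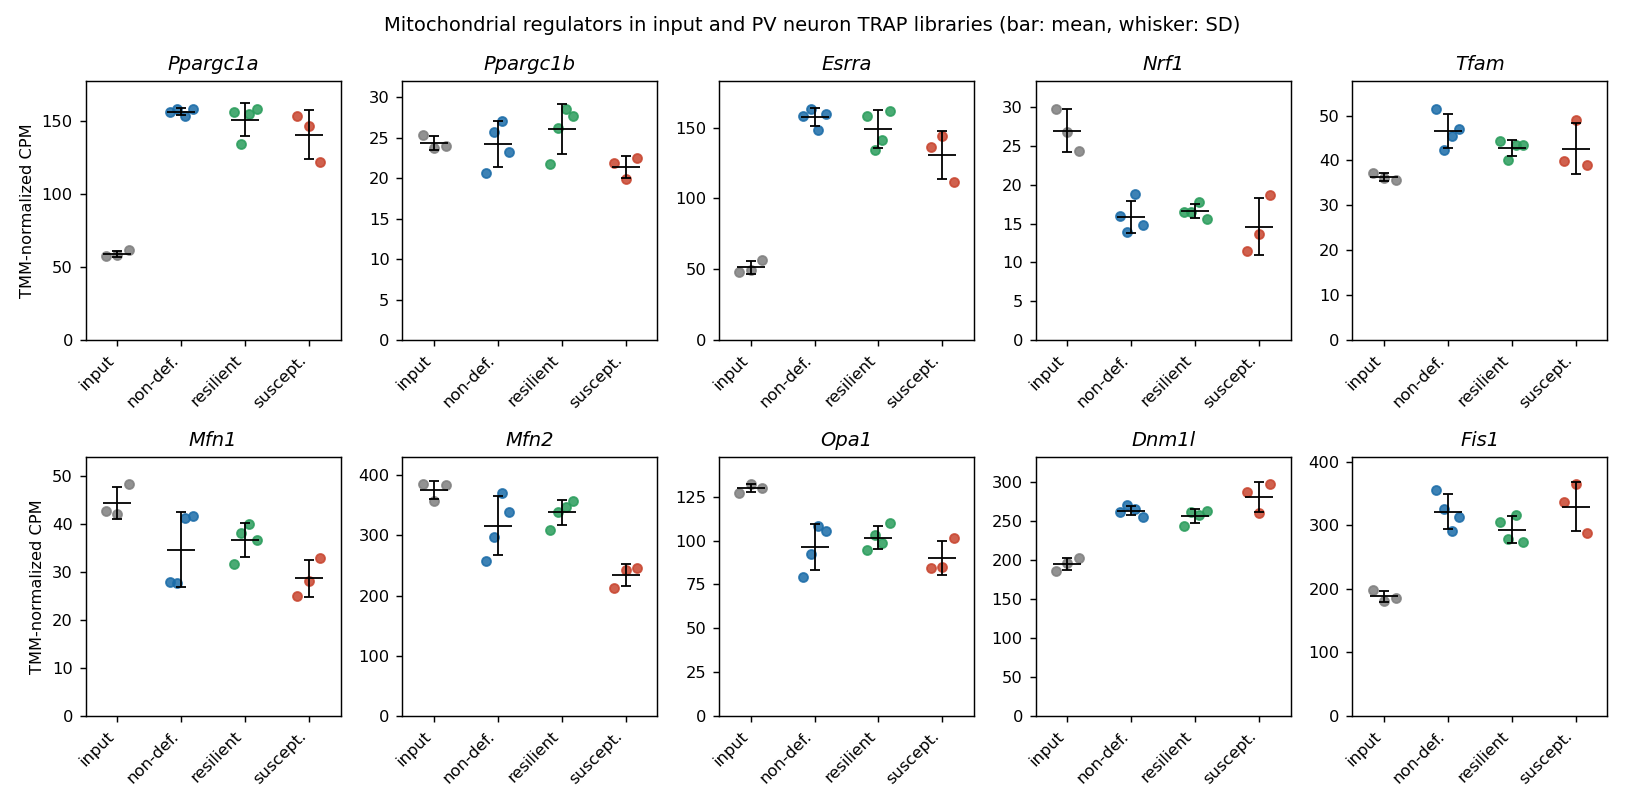
TMM-normalized CPM of each of the 10 genes (vertical axis, linear from 0) in the 3 input libraries and in the TRAP libraries of 4 non-defeated, 4 resilient and 3 susceptible mice. Each point is a library, the bar is the group mean and the whisker 1 SD. Every TRAP library lies above all input libraries for Ppargc1a, Esrra, Fis1, Dnm1l and Tfam, and below them for Nrf1, Opa1 and Mfn1. Mfn2 separates the susceptible libraries (213 to 246 CPM) from the resilient (309 to 358 CPM) and non-defeated ones (257 to 371 CPM).

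Promoter windows are shown for the coactivator and the receptor with the highest TRAP to input ratios among the 10 genes, and for the 3 fusion genes, because the comparisons turn on them. Each window runs from 250 bases before to 50 bases after an annotated start site and was taken from RefSeq on the GRCm38.p6 build, 5′ to 3′ on the strand of the gene. Windows of 9 of the 10 genes were searched, and none was used for Ppargc1b. Capitals mark matches, on either strand, to AAGGTCA (a core site bound by estrogen-related receptors, in 4.72% of all 32851 windows), GCGCATGC (NRF-1, 2.71%), CCGGAAG (GABP, an ETS factor, 8.86%) or TGACGTCA (the cyclic AMP response element, 1.79%). A match is a run of letters and not evidence of binding.
Ppargc1a (chr5:51567676-51567975, minus strand): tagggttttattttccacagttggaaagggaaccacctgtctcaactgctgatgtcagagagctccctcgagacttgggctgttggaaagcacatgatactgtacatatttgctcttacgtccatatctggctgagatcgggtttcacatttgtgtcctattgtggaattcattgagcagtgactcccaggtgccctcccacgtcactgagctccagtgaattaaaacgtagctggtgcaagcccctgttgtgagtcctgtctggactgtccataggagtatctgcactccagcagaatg
Esrra (chr19:6921759-6922058, minus strand): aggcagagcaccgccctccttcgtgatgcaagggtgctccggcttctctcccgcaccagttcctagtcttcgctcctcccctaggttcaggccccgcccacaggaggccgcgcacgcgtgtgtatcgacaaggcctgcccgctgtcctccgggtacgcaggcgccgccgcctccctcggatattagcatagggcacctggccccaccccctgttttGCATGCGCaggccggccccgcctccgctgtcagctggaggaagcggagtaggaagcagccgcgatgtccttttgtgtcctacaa
Opa1 (chr16:29579084-29579383, plus strand): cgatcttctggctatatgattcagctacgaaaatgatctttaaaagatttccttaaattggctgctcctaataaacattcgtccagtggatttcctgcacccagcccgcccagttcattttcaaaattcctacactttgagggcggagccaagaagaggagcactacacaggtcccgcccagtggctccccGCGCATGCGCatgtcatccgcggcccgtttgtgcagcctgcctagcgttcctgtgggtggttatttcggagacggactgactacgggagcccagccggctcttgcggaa
Mfn1 (chr3:32529232-32529531, plus strand): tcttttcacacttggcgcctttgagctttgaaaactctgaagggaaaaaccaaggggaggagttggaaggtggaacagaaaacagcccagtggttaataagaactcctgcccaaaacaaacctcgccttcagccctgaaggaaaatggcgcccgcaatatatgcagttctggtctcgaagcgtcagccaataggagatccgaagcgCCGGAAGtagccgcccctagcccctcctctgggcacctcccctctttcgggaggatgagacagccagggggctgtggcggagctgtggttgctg
Mfn2 (chr4:147904649-147904948, minus strand): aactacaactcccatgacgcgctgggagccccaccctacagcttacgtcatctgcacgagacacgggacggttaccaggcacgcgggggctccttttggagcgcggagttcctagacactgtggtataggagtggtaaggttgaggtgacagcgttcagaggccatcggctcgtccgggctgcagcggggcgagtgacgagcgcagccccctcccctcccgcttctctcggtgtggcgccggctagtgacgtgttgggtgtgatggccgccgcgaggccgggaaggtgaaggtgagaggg

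The Esrra window held the NRF-1 letters at position -34, counted from the start site to the first base of the match. The Opa1 window held them at -59 and, on the other strand, at -57, and these matches overlap. The GABP letters stood at -44 in Mfn1, and also at -47 in Tfam, at -18 in Fis1 and at 13 in Dnm1l, whose windows are not shown. A second Fis1 window, of another start site, held them at 20. None of the 4 motifs was found in the windows of Ppargc1a, Mfn2 or Nrf1. The Ppargc1a window had a GC content of 48.7% and 5 CpG dinucleotides, whereas the windows shown for Esrra and Mfn2 had 66.0% and 64.7% GC with 25 and 27 CpG dinucleotides. The median GC content of all windows was 52.7%.

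Levels of different genes were compared per length, as RPKM (CPM per kilobase of exon). In TRAP of non-defeated mice, Fis1 stood highest at 188 ± 15.8 RPKM (SD, n = 4). It was followed by Mfn2 at 60.8 and Dnm1l at 50.5 RPKM, whose ranges overlapped. Esrra came next at 35.9 RPKM and Ppargc1a at 23.7 RPKM, each with no library in the range of its neighbors. Opa1 (12.2 RPKM) and Tfam (10.5 RPKM) overlapped with each other, as did Ppargc1b (6.07 RPKM) and Mfn1 (5.66 RPKM). Nrf1 was the lowest at 1.54 ± 0.21 RPKM. Mfn2 thus exceeded Mfn1 and Ppargc1a exceeded Ppargc1b within each pair of related genes. The ratio of Mfn1 to Mfn2 in RPKM was 0.0926 ± 0.0105 (SD, n = 4) in these libraries and 0.100 ± 0.00619 (SD, n = 3) in input. The ratio of Ppargc1a to Ppargc1b was 3.95 ± 0.499 in these TRAP libraries and 1.47 ± 0.0927 in input, with no overlap.

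The first comparison asked which of these genes had more RNA on tagged ribosomes than in total RNA of the hippocampus. Cell type, ribosome loading and preparation cannot be told apart in it, and TRAP and input libraries carry different sample numbers. Ppargc1a was 2.65-fold and Esrra 3.06-fold higher in non-defeated TRAP libraries than in input, and Fis1, Dnm1l and Tfam were higher by smaller factors. Nrf1 and Opa1 were lower, and Mfn1, Mfn2 and Ppargc1b did not pass the test. So 5 of the 10 genes rose and 2 fell at an adjusted p under 0.05, beside 27.4% of all genes tested that were higher in TRAP and 27.6% that were lower. The median log2 fold change of the 10 genes was 0.18, and that of all genes was -0.04. Groups did not overlap for 8 of the 10 genes, which was also so for 62.0% of all genes.

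Ppargc1a (ENSMUSG00000029167; minus strand of chromosome 5, 51454250 to 51567726, GRCm38) had 57.3, 58.3 and 61.4 CPM in the 3 input libraries and 153, 156, 158 and 158 CPM in the 4 TRAP libraries of non-defeated mice. Every TRAP library was far above every input library, with little spread within either group. TRAP thus exceeded input 2.65-fold (log2 fold change 1.41, SE 0.09, adjusted p = 2.24e-08). Esrra (ENSMUSG00000024955; minus strand of chromosome 19, 6910977 to 6921813) had 48.3, 49.2 and 56.7 CPM in input and 148, 158, 160 and 163 CPM in TRAP. These values do not overlap either, and the log2 fold change was 1.61 (SE 0.10, adjusted p = 2.52e-08). The coactivator and the receptor it works with thus both rose, and the ratio of Ppargc1a to Esrra in RPKM was 0.644 to 0.688 in TRAP and 0.720 to 0.789 in input. Exons of Esrra share 73 bases, 1.66% of their length, with Trmt112 on the other strand, and the libraries did not keep strand.

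Ppargc1b (ENSMUSG00000033871), the other PGC-1 gene, had 24.2 ± 2.83 CPM in TRAP (SD, n = 4) and 24.3 ± 0.86 in input (SD, n = 3). Its log2 fold change of -0.01 (SE 0.11, adjusted p = 0.961) was 0.02 under DESeq2 and 0.17 with an offset for gene length, so no direction was called. Nrf1 (ENSMUSG00000058440; plus strand of chromosome 6, 30047988 to 30153458) was lower in TRAP, with 13.9 to 18.8 CPM against 24.3 to 29.8 CPM in input. The log2 fold change was -0.77 (SE 0.15, adjusted p = 0.000532). Tfam (ENSMUSG00000003923; minus strand of chromosome 10, 71225464 to 71238280) was higher in TRAP, with 42.4 to 51.5 CPM against 35.7 to 37.3 CPM. This was a log2 fold change of 0.36 (SE 0.09, adjusted p = 0.00525). Thus among the biogenesis genes 3 were higher, 1 was lower and 1 did not pass.

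Of the fission genes, Fis1 (ENSMUSG00000019054; plus strand of chromosome 5, 136953275 to 136966234) had 181, 185 and 197 CPM in input and 292, 313, 326 and 356 CPM in TRAP of non-defeated mice. The difference on the log2 scale was 0.78 (SE 0.09, adjusted p = 8.75e-06). Dnm1l (ENSMUSG00000022789; minus strand of chromosome 16, 16312230 to 16358959) had 186, 195 and 202 CPM in input and 255, 261, 265 and 270 CPM in TRAP. Both fission genes were therefore higher in every TRAP library than in every input library. The log2 fold change of Dnm1l was 0.44 (SE 0.07, adjusted p = 7.76e-05). An antisense gene, Gm49521, shares 243 bases, 4.67%, of the Dnm1l exons, and reads from both cannot be told apart here.

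The fusion genes went the other way or did not pass. Opa1 (ENSMUSG00000038084; plus strand of chromosome 16, 29579334 to 29654884) had 127, 130 and 132 CPM in input and 79.5, 92.6, 105 and 108 CPM in TRAP, with a log2 fold change of -0.43 (SE 0.10, adjusted p = 0.00309). Mfn1 (ENSMUSG00000027668; plus strand of chromosome 3, 32529465 to 32579239) had 42.1 to 48.2 CPM in input and 27.7 to 41.6 CPM in TRAP. Its 4 TRAP libraries lay below input without overlap, but the log2 fold change of -0.36 (SE 0.15, adjusted p = 0.0617) did not pass. Mfn2 (ENSMUSG00000029020; minus strand of chromosome 4, 147873599 to 147904704) had 357 to 385 CPM in input and 257 to 371 CPM in TRAP, which overlap. Its log2 fold change was -0.25 (SE 0.11, adjusted p = 0.0613). Within libraries, the RPKM ratio of Mfn2 to Dnm1l was 1.83 to 2.07 in input and 0.985 to 1.40 in TRAP of non-defeated mice. The ratio of Opa1 to Dnm1l was 0.426 to 0.453 in input and 0.201 to 0.273 in TRAP.

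The calls of the smaller changes moved with the scaling. With library totals alone, all genes were called 4378 higher and 7598 lower in place of 5832 higher and 5887 lower, and their median log2 fold change moved from -0.04 to -0.23. Under that scaling Tfam was at 0.17 and no longer passed, and Mfn1 at -0.55 and Mfn2 at -0.44 passed as lower. Dnm1l was at 0.25 with library totals alone and at 0.69 with an offset for gene length, and with that offset Nrf1 was at -0.47 and Tfam at 0.57, all of which passed. Without the non-defeated library 9, Mfn1 (-0.45, adjusted p = 0.0266) and Mfn2 (-0.33, adjusted p = 0.0127) also passed, and without library 11 Mfn1 did (-0.45, adjusted p = 0.0295). With an offset for gene length, Opa1 was at -0.13 and did not pass. Under that offset Mfn1 was at -0.088 (adjusted p = 0.569) and Mfn2 at -0.0070 (adjusted p = 0.951).

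**Figure D2:**
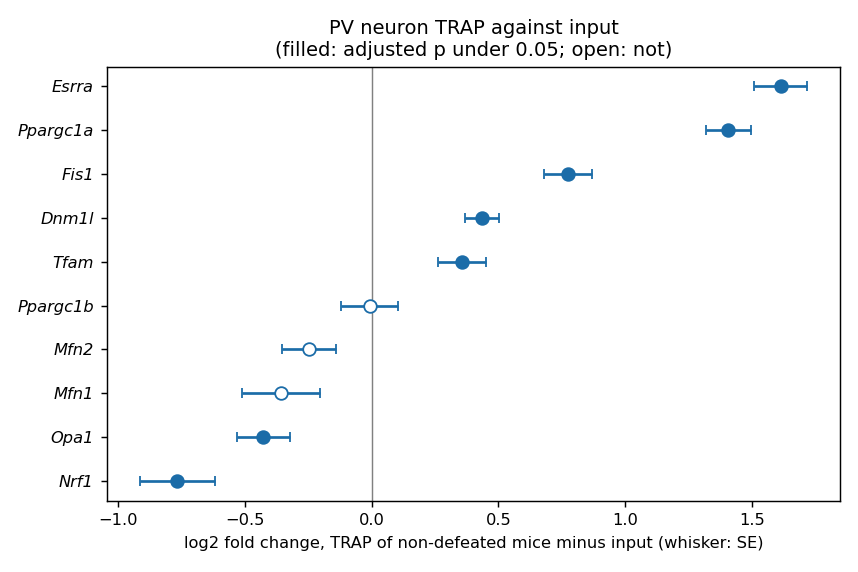
Log2 fold change (horizontal axis) of the 10 genes between TRAP of 4 non-defeated mice and 3 input libraries, positive where TRAP was higher, with whiskers of 1 SE. Filled points passed an adjusted p under 0.05. Esrra (1.61) and Ppargc1a (1.41) stand apart at the right and Nrf1 (-0.77) at the left.

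Of 87 further genes of these processes, in 7 lists, 86 were tested. In TRAP, 32 were higher (37.2%, beside 27.4% of all genes tested) and 23 lower (26.7%, beside 27.6%) than in input. The counts of each list below stand against the same shares of all genes. Among 16 other biogenesis coactivators and transcription factors, 5 were higher and 6 lower. The highest was Esrrg, which encodes the receptor ERRgamma, at 107 ± 27.4 CPM in TRAP against 17.0 ± 3.71 in input, a log2 fold change of 2.65 (adjusted p = 8.90e-07). Of 12 kinases, deacetylases and other upstream regulators, 3 were higher and 7 lower. Sirt3, a mitochondrial deacetylase, was higher by 1.29 on the log2 scale (adjusted p = 8.63e-07), and Camkk2, a kinase that acts on AMPK, fell by 0.99 on that scale (adjusted p = 1.65e-07). Of the 15 genes for copying and transcribing mitochondrial DNA, 3 were higher and 1 lower.

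Of 11 fission partners tested, 4 were higher and 2 lower. Of 12 genes for inner membrane proteases and other fusion partners, 7 were higher and none lower, although none of the 3 fusion GTPases was higher. Phb, which encodes the inner membrane scaffold prohibitin, stood at 113 ± 3.34 CPM in input and 275 ± 11.4 in TRAP, a log2 fold change of 1.28 (adjusted p = 1.61e-08). In the list for mitochondrial transport, 4 of 10 genes were higher and 5 lower. That list also holds Miga1, an outer membrane protein gene linked to fusion, and its relative Miga2. The kinesin heavy chain gene Kif5a was the lowest in it, at -2.01 (adjusted p = 2.61e-06). For mitophagy, 6 of 10 were higher and 2 lower. The receptor genes Fundc2 (1.19, adjusted p = 2.84e-07) and Fundc1 (0.99, adjusted p = 5.07e-07) were higher, and Usp30, a deubiquitinase that opposes mitophagy, was lower (-0.91, adjusted p = 2.59e-06).

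Of transcripts that the literature describes as lowered in PV neurons without PGC-1alpha, 5 were tested and 5 were higher in TRAP. Their log2 fold changes were 5.85 for Pvalb, 3.48 for Syt2, a synaptic vesicle calcium sensor, 2.37 for Nefh, a neurofilament subunit, 2.10 for Cplx1, a release regulator, and 1.62 for Inpp5j, an inositol phosphatase. Pvalb and Syt2 also stand in the list of PV interneuron markers.

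The second comparison asked whether defeated mice that stayed resilient differed from non-defeated mice. None of the 10 genes passed at an adjusted p under 0.05 in edgeR, and none at an unadjusted p under 0.05, beside 0.0% and 4.38% of all genes tested. No other tool called any of them after adjustment, either. Log2 fold changes lay between -0.13 for Fis1 (SE 0.09) and 0.11 for Ppargc1b (SE 0.10), with 5 above and 5 below 0 and a median of 0.01. Groups overlapped for all 10 genes, whereas they did not for 2.35% of all genes. Ppargc1a had 134, 155, 156 and 158 CPM in resilient libraries. The lowest of these was library 5. The other resilient libraries lay within the non-defeated range of 153 to 158 CPM or, for library 8 (158.3 CPM), just above its top of 158.2 CPM.

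The third and the fourth comparison asked how susceptible mice differed from non-defeated and from resilient mice. They share the susceptible libraries, and the former shares the non-defeated libraries with the second comparison, so their values are given side by side and not counted as separate evidence. Mfn2 was lower in susceptible mice than in resilient mice, at a fold of 0.69, and no other of the 10 genes passed at an adjusted p under 0.05. Against non-defeated mice no gene of the 10 passed, and Mfn2 and Esrra had the smallest p-values. For both comparisons 8 of the 10 log2 fold changes were negative, and those of Dnm1l and Fis1 were positive.

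In susceptible against non-defeated mice, 0 of the 10 genes passed after adjustment in edgeR, beside 0.0376% of all genes, and 2 had an unadjusted p under 0.05, beside 13.3% of all genes. Groups did not overlap for these 2 genes, and for 8.62% of all genes. In susceptible against resilient mice, 1 of the 10 genes passed after adjustment, beside 1.89% of all genes, and 3 had an unadjusted p under 0.05, beside 20.9%. Groups did not overlap for 1 of the 10, and for 15.1% of all genes. The median log2 fold change of the 10 genes was -0.14 against non-defeated and -0.18 against resilient mice, and that of all genes was 0.01 and 0.0028. The count of 3 is therefore not read as a result about the 10 genes as a group.

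**Figure D3:**
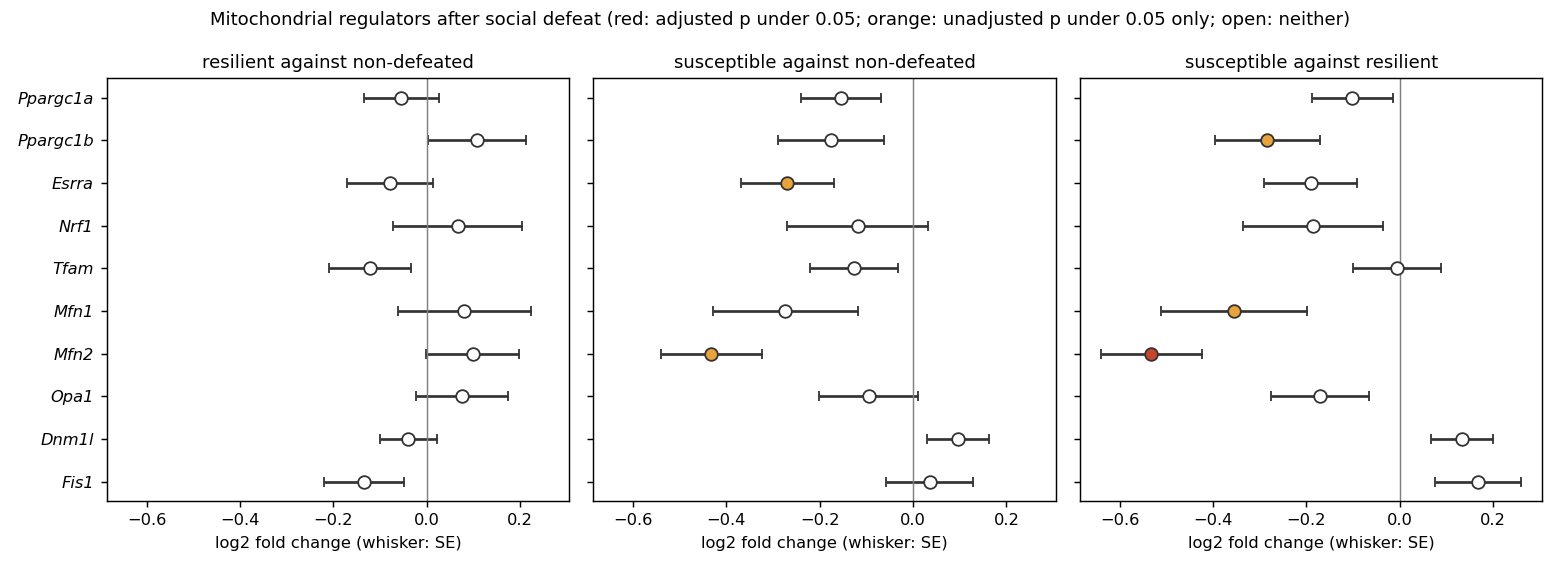
Log2 fold changes (horizontal axis) of the 10 genes in the 3 comparisons among TRAP libraries, with whiskers of 1 SE, each positive where the group named first was higher. Red marks an adjusted p under 0.05, orange an unadjusted p under 0.05 only. Mfn2 lies farthest from 0 in both comparisons of susceptible mice, at -0.43 and -0.53, and at 0.10 in resilient against non-defeated mice.

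Mfn2, the mitofusin that also tethers mitochondria to the endoplasmic reticulum, had 213, 243 and 246 CPM in the 3 susceptible libraries. The 4 resilient libraries had 309, 339, 348 and 358 CPM, and the 4 non-defeated libraries had 257, 297, 338 and 371 CPM. Every susceptible library was below every resilient and every non-defeated library, and the non-defeated libraries spread more widely than the others. The log2 fold change was -0.53 with respect to resilient mice (SE 0.11, adjusted p = 0.0378), and -0.43 with respect to non-defeated mice (SE 0.11, adjusted p = 0.157). An exact 2-sided permutation test over the libraries gave p = 0.0571 in both cases, which is the smallest value that 3 against 4 libraries allow. Resilient and non-defeated mice differed by 0.10 (SE 0.10, adjusted p = 1.0).

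The Mfn2 call against resilient mice was close to the threshold. It was lost when only the 2 groups were fitted (-0.54, adjusted p = 0.136) and when only the 11 TRAP libraries were (-0.53, adjusted p = 0.102). Over all genes, 0 of 20307 and 1 of 20762 passed in these fits, respectively, and what ended the call was not tested. Leaving out a single library kept the log2 fold change between -0.57 and -0.47. The adjusted p was then 0.0505 without resilient library 3, 0.0543 without 5, 0.0979 without 7 and 0.095 without 8. It was 0.15 without susceptible library 2, 0.0641 without 4 and 0.0296 without 10. DESeq2 gave -0.54 with an adjusted p of 0.000332. The TRAP libraries were also split by the number in the sample name, at a cut that was set by hand and is not in the labels. Within those numbered 1 to 6 (2 susceptible, 2 resilient) the Mfn2 log2 difference was -0.51, and within 7 to 11 (1 susceptible, 2 resilient) it was -0.52. Against non-defeated mice these differences were -0.28 and -0.52.

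Markers of blood and vessels differed between the same groups. The summed CPM of the 7 endothelial and blood markers was 769 to 1008 in susceptible libraries, 122 to 500 in resilient and 108 to 208 in non-defeated ones. Most of this came from 3 globin genes, of which Hba-a1 averaged 306, 90.4 and 53.6 CPM in these groups. Against resilient mice, 3 of the 7 were higher, and against non-defeated mice 2 were. The summed CPM of 5 choroid plexus markers was 427 to 720, 163 to 453 and 199 to 313, respectively, and PV interneuron markers summed to 3481 to 4895, 4027 to 4885 and 4281 to 4628. Of 8 excitatory markers, Grin2b was higher in susceptible than in resilient mice (0.63, adjusted p = 0.0416). No other of these 8 had an unadjusted p under 0.05, and their median log2 fold change was 0.099. Markers of other interneurons summed to 535 to 901 CPM in susceptible, 462 to 814 in resilient and 459 to 661 in non-defeated libraries. None of these 8 passed after adjustment against resilient mice, and Reln (0.51) and Cck (0.31) had an unadjusted p under 0.05. Calb2 went the other way (-0.41), and the median log2 fold change of the 8 was 0.21. No marker of these lists was at 0 in all libraries of a group. With the ratio of summed markers of other cells to Pvalb as a covariate, the Mfn2 difference had an adjusted p of 0.013 from resilient mice (-0.57) and of 0.0213 from non-defeated mice (-0.55). In that fit 2004 of 20762 genes passed against resilient and 1704 against non-defeated mice. Without the covariate, 1 and 0 genes passed in the same 11 libraries. The part of these markers in the Mfn2 result was not tested.

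Mfn1, the partner mitofusin, had 25.0, 28.1 and 32.8 CPM in susceptible, 31.7, 36.6, 38.2 and 40.0 CPM in resilient and 27.7, 28.0, 41.2 and 41.6 CPM in non-defeated libraries. Susceptible and resilient libraries overlapped in 1 library each, and the non-defeated libraries fell into a low pair, numbered 1 and 6, and a high pair, numbered 9 and 11. The log2 fold change was -0.36 against resilient (SE 0.16, unadjusted p = 0.0384, adjusted p = 0.211) and -0.27 against non-defeated mice (SE 0.16, adjusted p = 0.453). With the marker ratio as a covariate the adjusted p was 0.0442 and 0.0428, in a fit that called 2004 and 1704 of 20762 genes, respectively. Opa1 had 84.5, 84.8 and 101 CPM in susceptible libraries, within the non-defeated range of 79.5 to 108 CPM, and the resilient range was 94.8 to 110 CPM. Its log2 fold changes were -0.17 (SE 0.11, adjusted p = 0.381) and -0.10 (SE 0.11, adjusted p = 0.718).

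The fission genes did not pass in either comparison. Dnm1l had 259, 287 and 296 CPM in susceptible, 243 to 262 CPM in resilient and 255 to 270 CPM in non-defeated libraries, so that 2 of the 3 susceptible libraries stood above all others. Its log2 fold change was 0.13 against resilient (SE 0.07, adjusted p = 0.265) and 0.10 against non-defeated mice (SE 0.07, adjusted p = 0.544). Fis1 had 288 to 364 CPM in susceptible, 274 to 316 CPM in resilient and 292 to 356 CPM in non-defeated libraries, which overlap. Its log2 fold changes were 0.17 (SE 0.09, adjusted p = 0.317) and 0.04 (SE 0.09, adjusted p = 0.899), and the latter was -0.04 with an offset for gene length.

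Ratios taken within a library do not depend on how libraries are scaled. The RPKM ratio of Mfn2 to Dnm1l was 0.745, 0.832 and 0.937 in susceptible libraries. It was 1.28, 1.30, 1.35 and 1.37 in resilient and 0.985, 1.10, 1.33 and 1.40 in non-defeated libraries, so that the susceptible libraries were below all others. The ratio of Mfn2 to Fis1 was 0.209 to 0.282 in susceptible, 0.334 to 0.431 in resilient and 0.238 to 0.420 in non-defeated libraries. Here susceptible and non-defeated libraries overlapped. The ratio of Opa1 to Dnm1l was 0.195 to 0.226 in susceptible, 0.253 to 0.277 in resilient and 0.201 to 0.273 in non-defeated libraries. Susceptible and resilient libraries did not overlap in it, and both overlapped with non-defeated ones. The ratio of Mfn1 to Mfn2 was 0.0983 to 0.113 in susceptible and 0.0869 to 0.0978 in resilient libraries. In non-defeated libraries it was 0.0791 to 0.105, which overlapped with both. The pairs were chosen after the values were known and are given without a test.

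**Figure D4:**
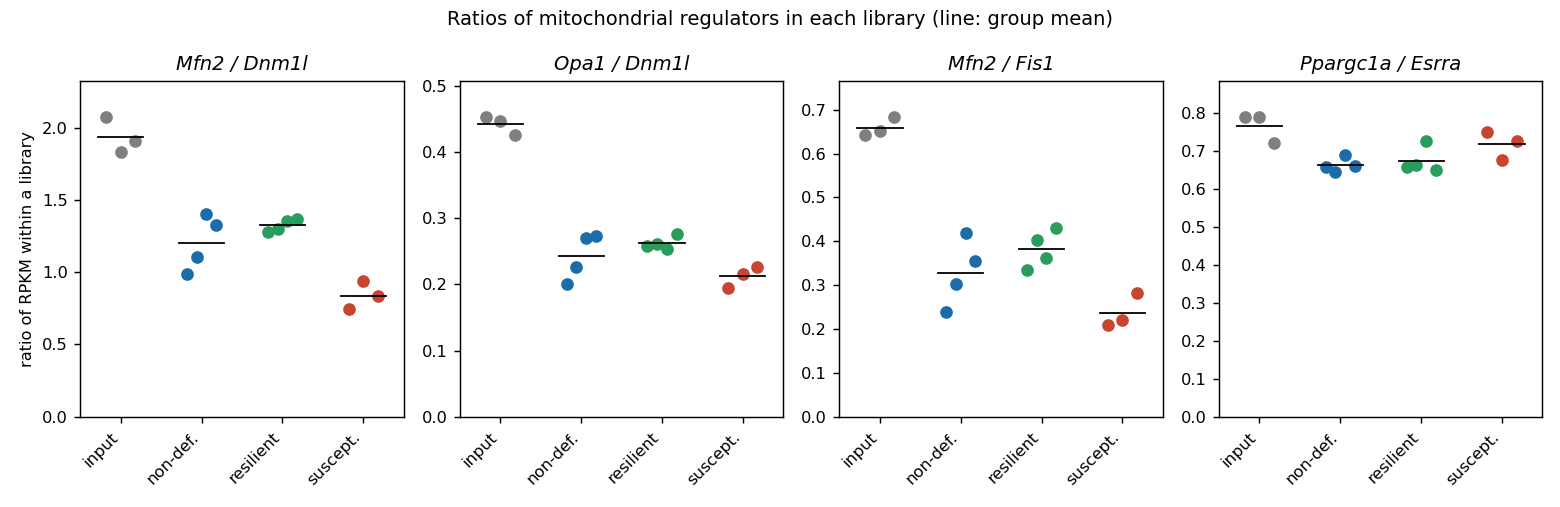
Ratio of RPKM (vertical axes, linear from 0) of Mfn2 to Dnm1l, Opa1 to Dnm1l, Mfn2 to Fis1 and Ppargc1a to Esrra within each of the 14 libraries. Points are libraries and lines are group means. Input has the highest mean in each panel, and for Mfn2 to Dnm1l the 3 susceptible libraries (0.745 to 0.937) lie below every other library. For Mfn2 to Fis1 the susceptible libraries (0.209 to 0.282) overlap with the non-defeated ones (0.238 to 0.420).

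Among the biogenesis genes, Esrra had 111, 136 and 144 CPM in susceptible libraries, all below the non-defeated range of 148 to 163 CPM, and within or below the resilient range of 134 to 162 CPM. Its log2 fold change was -0.27 against non-defeated (SE 0.10, unadjusted p = 0.0172, adjusted p = 0.288) and -0.19 against resilient mice (SE 0.10, adjusted p = 0.294). Without susceptible library 10 these were -0.17 and -0.09. Ppargc1a had 122, 147 and 153 CPM in susceptible libraries, and the lowest again was library 10. Its log2 fold change was -0.16 against non-defeated (SE 0.09, adjusted p = 0.443) and -0.10 against resilient mice (SE 0.09, adjusted p = 0.542). Without library 10 these were -0.06 and -0.01. Library 10 also had the highest log2 ratio of other-cell markers to Pvalb, 2.29, beside 1.16 to 2.15 in the other 10 TRAP libraries.

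Ppargc1b had 19.9, 21.9 and 22.5 CPM in susceptible libraries and 21.8, 26.3, 27.8 and 28.6 CPM in resilient libraries, which overlap through the lowest resilient library. The log2 fold change was -0.28 (SE 0.11, unadjusted p = 0.0249, adjusted p = 0.173), and -0.18 against non-defeated mice (SE 0.11, adjusted p = 0.508). Nrf1 had 11.5, 13.7 and 18.7 CPM in susceptible libraries, a wider range than that of the non-defeated (13.9 to 18.8 CPM) or the resilient libraries (15.6 to 17.8 CPM). Tfam had 38.9, 39.8 and 49.1 CPM, and its log2 fold changes were -0.01 against resilient (SE 0.09) and -0.13 against non-defeated mice (SE 0.09). The sign of Tfam against resilient mice changed with the normalization, being 0.0055 with RLE size factors and 0.0061 with library totals alone. Thus no biogenesis gene of the 10 passed after adjustment in any comparison of stressed mice.

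Few of the other 86 genes of the pathway passed in stressed mice. After adjustment 0 of them passed in resilient against non-defeated mice and 0 in susceptible against non-defeated mice. At an unadjusted p under 0.05 there were 5 (5.81%, beside 4.38% of all genes) and 17 (19.8%, beside 13.3%), respectively. In susceptible against resilient mice 1 was higher and 1 lower after adjustment (2.33%, beside 1.89% of all genes). At an unadjusted p under 0.05 there were 27 (31.4%, beside 20.9%), of which 21 were lower. Yy1, a transcription factor that works with PGC-1alpha, was higher, with 13.8 ± 0.35 CPM (SD, n = 3) against 8.36 ± 0.81 (SD, n = 4). This is a log2 fold change of 0.72 (SE 0.13, adjusted p = 0.0278), and it was 0.29 against non-defeated mice (adjusted p = 0.361). Kat2a, an acetyltransferase that acts on PGC-1alpha, was lower, with 57.4 ± 0.34 against 70.1 ± 1.75 CPM, a log2 fold change of -0.29 (SE 0.07, adjusted p = 0.0485). With RLE size factors, or with library totals alone, 1 of the 86 genes passed. When only the 2 groups were fitted, the adjusted p was 0.136 for Yy1 and 0.162 for Kat2a, and with the 11 TRAP libraries only it was 0.0921 and 0.119, so that both calls were lost. Leaving out resilient library 3, 7 or 8 or susceptible library 2 or 4 ended the Yy1 call (0.0505 to 0.115), and leaving out any 1 of the 7 libraries ended that of Kat2a (up to 0.158).

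Of the other genes with the smallest p-values, none passed. Mief1, a receptor for the product of Dnm1l, had 30.3 ± 2.53 CPM in susceptible, 37.5 ± 1.95 in resilient and 38.2 ± 2.30 in non-defeated libraries (adjusted p = 0.0671 and 0.152). Polrmt, the mitochondrial RNA polymerase, had 24.2 ± 4.66 CPM in susceptible and 35.3 ± 4.64 in resilient libraries (adjusted p = 0.0749). Prkaa1, a catalytic subunit of AMPK, was at -0.47 against non-defeated mice (adjusted p = 0.208). Trak1, an adaptor between mitochondria and motors, was at -0.27 (adjusted p = 0.208), and Miga1, an outer membrane protein linked to fusion, was at -0.31 (adjusted p = 0.221). In resilient against non-defeated mice, Yy1 was at -0.43, Spg7, a subunit of an inner membrane protease, at 0.32, Prkab1, a regulatory subunit of AMPK, at 0.31 and Rhot2, which links mitochondria to motor adaptors, at -0.19, each with an adjusted p of 1.0.

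Of the 5 transcripts described as lowered without PGC-1alpha, Inpp5j passed in susceptible against resilient mice. It had 192 ± 9.07 CPM in susceptible, 291 ± 12.8 in resilient and 276 ± 41.5 in non-defeated libraries, and its log2 fold change was -0.60 relative to resilient mice (SE 0.11, adjusted p = 0.0279). It was -0.53 relative to non-defeated mice, with an adjusted p of 0.104. The Inpp5j call against resilient mice was lost when only the 2 groups were fitted (adjusted p = 0.136) and with the 11 TRAP libraries only (adjusted p = 0.0834). It was also lost without resilient library 3, 7 or 8 or susceptible library 2 or 4 (adjusted p 0.0505 to 0.132). Pvalb (0.17), Syt2 (-0.06), Cplx1 (-0.11) and Nefh (-0.30) did not pass against resilient mice. Ppargc1a itself was at -0.10 in that comparison.

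**Figure D5:**
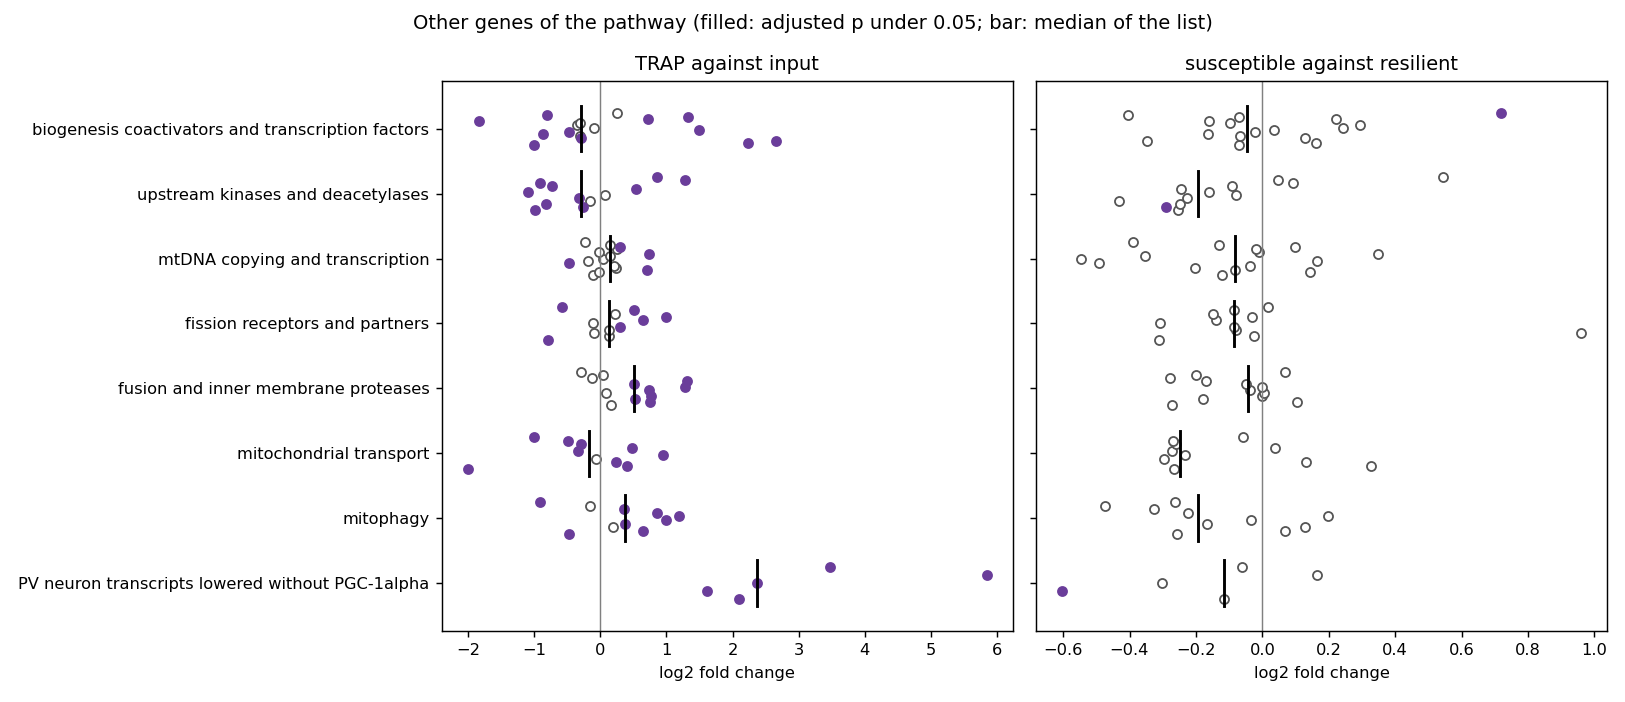
Log2 fold changes (horizontal axes) of the other pathway genes in TRAP against input (left) and in susceptible against resilient mice (right). Each point is a gene, filled where the adjusted p was under 0.05, and the bar is the median of the list. Many points are filled at the left, including all 5 transcripts of the last list, and 3 at the right: Yy1 (0.72), Kat2a (-0.29) and Inpp5j (-0.60).

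Across the 11 TRAP libraries, log2 CPM of Ppargc1a and Esrra ran together, with Pearson's r = 0.90 and Spearman's rho = 0.90. Esrra ranked at place 10 of 16236 genes by likeness to Ppargc1a. Among the 5 genes most like Ppargc1a were Apba3 (r = 0.94), Ece2 (r = 0.93), Hhatl (r = 0.92) and Tm9sf3 (r = 0.91). The fusion genes also ran together, with r = 0.86 for Mfn1 and Mfn2, 0.86 for Mfn1 and Opa1, and 0.79 for Mfn2 and Opa1. This was not particular to them. Ppargc1b ran with Mfn2 (r = 0.79), Opa1 (r = 0.73) and Mfn1 (r = 0.66). Nrf1 ran with Mfn1 (r = 0.67), Mfn2 (r = 0.56) and Opa1 (r = 0.55). For Ppargc1a, Esrra and Tfam, r with the fusion genes was -0.37 to 0.40. Fis1 ran against Opa1 (r = -0.89) and against both mitofusins (r = -0.66 and -0.63), whereas Dnm1l and Fis1 showed little relation (r = -0.06). Fis1 also ran against Ppargc1b (r = -0.67) and Nrf1 (r = -0.55). Its r was positive with Tfam (0.58), Ppargc1a (0.33) and Esrra (0.21). These are descriptions over 11 points that share the 3 groups, the order of sample numbers and the preparation, and they carry no p. Fis1 has 1714 bases of exon at 54.4% GC and Opa1 7875 at 43.5% GC, so they also differ in length and base composition, and the part of these properties was not tested.

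Several genes also differed with the number in the sample name. In non-defeated mice, Mfn1 was at 28.0 and 27.7 CPM in libraries 1 and 6 and at 41.2 and 41.6 CPM in libraries 9 and 11, and Opa1 at 79.5 and 92.6 against 108 and 105 CPM. Resilient minus non-defeated log2 differences of Mfn1 were 0.32 within libraries 1 to 6 and -0.11 within 7 to 11, and those of Mfn2 were 0.23 and -0.01. What the numbers stand for is not given in the sources used here, and the labels set no cut between 6 and 7. Susceptible minus resilient log2 differences of Esrra were -0.06 within 1 to 6 and -0.44 within 7 to 11, where the only susceptible library was 10.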

How the data were processed

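TRAP RNA of 11 libraries and total RNA of 3 input libraries were measured. The authors trimmed reads with fastp, aligned them to mm10 with STAR and deposited raw counts of reads per gene for 14 libraries, without normalization. The submitters' processing notes name STAR 2.5.3a and HTSeq, while the paper's methods give another STAR version. The annotation used for counting is not given in the sources used here, and the library kit did not keep strand. GENCODE release 21 for mouse (GRCm38) gave names for 37607 of 39017 identifiers, with exon lengths and GC content. Groups came from the labels.

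The analysis used edgeR 4.0.16 in R 4.3.3. All 14 libraries entered a single quasi-likelihood fit with TMM normalization and the default filter on low counts. Tests were 2-sided with Benjamini-Hochberg adjustment over 21298 genes, at an adjusted p under 0.05, with an unadjusted p under 0.05 as a weaker rule. Because the files hold counts, this test replaced the study's own DESeq2 test, which was run as an alternative (version 1.42.0). RPKM divides TMM-normalized CPM by exon length. Log2 CPM used a prior count of 2. Correlations over the TRAP libraries carry no p.

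The members and lists were chosen with earlier results of these data known, and the lists are not independent evidence. Of other pathway genes, those named were the 8 with the smallest p per comparison among those that passed, or the 4 with the smallest p where fewer than 4 passed, and the literature list on PGC-1alpha. The genes named as most like Ppargc1a were the 5 with the highest r among genes with a mean of at least 1 CPM. A gene that this rule also chose is not reported here.

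Alternatives were RLE size factors, library totals alone, no filter, at least 10 counts in every library, the likelihood ratio test, DESeq2, the groups compared only, the TRAP libraries only, offsets for GC content and gene length, covariates for sample number and for the log2 ratio of summed markers of other cells to Pvalb, and leaving out each library. The steps were tested on simulated data.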

Additional observations from a re-analysis of the deposited data

Results flagged for a closer look

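Ppargc1a had 134 CPM in resilient library 5, while the other 3 resilient libraries had 155 to 158 CPM, so that this library stood apart from its group. It was the only such case in 20 groups of 4 libraries examined, and chance alone gives about 1 in 20. This library also had the highest log2 ratio of other-cell markers to Pvalb of the resilient libraries, 2.15 beside 1.23 to 1.86, and the lowest Pvalb level, 1208 CPM, and the part of these in its Ppargc1a value was not tested. Without any 1 of the libraries, the log2 fold change of Ppargc1a between resilient and non-defeated mice lay between -0.08 and -0.00086.

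Mfn2 differed between the defeated groups. The log2 fold change of susceptible against resilient mice was -0.53 (SE 0.11, adjusted p = 0.0378 by edgeR), lower in 3 of 3 susceptible libraries than in every resilient library. Against the same non-defeated libraries it was -0.43 in susceptible and 0.10 in resilient mice.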

How the results depend on the processing

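No paired analysis was possible because each sample number occurs in 1 group, and a replicate block could not be fitted. Of the alternatives for TRAP against input, the number of the 10 genes called lower, 2, became 4 with library totals alone, 4 with at least 10 counts in every library and 1 with an offset for gene length, and 2 to 4 with each library left out. Ppargc1b changed sign there, with 0.0094 for RLE size factors, 0.0156 for DESeq2, 0.0166 for GC content, 0.17 for gene length and -0.0662 to 0.0603 with each library left out. In resilient against non-defeated mice, the sample number as a covariate gave 1 gene with an unadjusted p under 0.05, which was Fis1, beside 1550 of all 20762 genes in that fit. The marker ratio as a covariate gave 0.0171 for Ppargc1a, 0.0185 for Esrra, -0.0497 for Nrf1, -0.0726 for Mfn1 and -0.0139 for Opa1, and the GC offset gave 0.0067 for Dnm1l, all of opposite sign to the values reported. Leaving out each library gave -0.0124 to 0.18 for Mfn1 and -0.0061 to 0.14 for Opa1. The cause of these changes was not tested.

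In susceptible against non-defeated mice, 0 genes after adjustment became 1 with the likelihood ratio test and 2 with the marker ratio, and the 2 with an unadjusted p under 0.05 became 2 to 4 with each library left out. Fis1 was at -0.0362 with gene length and -0.0055 with sample number, and at -0.0436 to 0.12 with each library left out. Nrf1 was then at -0.34 to 0.0266. In susceptible against resilient mice, 1 gene after adjustment became 0 with the groups compared only, 0 with the TRAP libraries only, 2 with the marker ratio, and 0 to 1 with each library left out. The 3 with an unadjusted p under 0.05 became 6 with the marker ratio and 1 to 6 with each library left out. Of all genes, 5558 of 20762 did with the marker ratio and 3192 to 5214 with each library left out. Tfam was at 0.0055 with RLE size factors, 0.0061 with library totals, 0.0599 with gene length and 0.0146 with the marker ratio, and at -0.12 to 0.0544 with each library left out. Of the other pathway genes, 2 became 1 with RLE size factors, 1 with library totals and 0 to 4 with each library left out. Under alternatives added after seeing the data, they became 0 with the groups compared only, 0 with the TRAP libraries only, 1 with no filter, 1 with the GC offset, 4 with the likelihood ratio test, 5 with sample number, 6 with DESeq2 and 10 with the marker ratio, and 0 became 1 with DESeq2 and 7 with the marker ratio in susceptible against non-defeated mice. Of all 20762 genes, the marker ratio fit called 2004 against resilient and 1704 against non-defeated mice. DESeq2 called 1004 of 27329 and 113 of 27256. The marker ratio counts, also those of the 10 genes, are therefore not read as a result about the pathway.

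Over all genes, 403 passed in susceptible against resilient mice, beside 126 with no filter, 178 with the GC offset, 1099 with the likelihood ratio test, 1004 with DESeq2, 0 with the groups compared only, 1 with the TRAP libraries only, 1109 with sample number, 2004 with the marker ratio and 6 to 1058 with each library left out. In susceptible against non-defeated mice, 8 became 13 with RLE size factors, 16 with the strict filter, 189 with the likelihood ratio test, 113 with DESeq2, 5 with the groups compared only, 3 with gene length, 0 with the TRAP libraries or sample number, 1704 with the marker ratio and 0 to 6 with each library left out. Those with an unadjusted p under 0.05, 2835, became 1683 with the groups compared only and 5602 with the marker ratio. In resilient against non-defeated mice, 0 became 4 with the likelihood ratio test, and 933 at an unadjusted p under 0.05 became 590 with the TRAP libraries only, 1550 with sample number, 1689 with the marker ratio and 687 to 1537 with each library left out. Groups of 3 and 4 libraries limit every comparison. Depth does not, since every count of the 10 genes was at least 836.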
